A study of Mus musculus with 18 samples.

Results

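Srebf2 and 6 genes of its cholesterol synthesis programme (Hmgcs1, Idi1, Sqle, Lss, Cyp51 and Insig1) were followed in 18 mouse livers. They were chosen by name as SREBP2 itself, 5 synthesis enzymes and 1 feedback gene, and all 7 were found among the 19057 symbols of the table and passed the filter on low values. All mice were of the outbred ICR strain and were sampled at 10 weeks, with 3 mice in each of 6 groups. Con mice received a regular diet and saline. STZ mice received 1 injection of streptozotocin, a toxin of the insulin-producing beta cells that serves as a model of type 1 diabetes. Con-FMT and A10-FMT mice received the same STZ injection and then oral microbiota, which came from control donors in Con-FMT and from donors given alginate oligosaccharide (AOS) at 10 mg/kg in A10-FMT. AOS mice were labelled with AOS at 10 mg/kg and STZ+AOS mice with both agents. The last pair of groups is known from the labels alone. The donor material was small intestinal content pooled within each donor group, so each FMT group received 1 inoculum.

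SREBP2, the product of Srebf2, is held in the endoplasmic reticulum as an inactive precursor while sterols are plentiful. When sterols fall, the escort protein SCAP carries it to the Golgi, where proteases release the part that enters the nucleus and activates genes of cholesterol synthesis and uptake. INSIG1 retains the SCAP complex in the endoplasmic reticulum and is itself encoded by an SREBP target, and Srebf2 carries a sterol response element of its own. Cholesterol synthesis in rodent liver also varies with feeding and the time of day.

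The promoters of Srebf2, Hmgcs1, Cyp51 and Insig1 are shown because these genes stand for the regulator, an early step, a late step and the feedback arm. RefSeq promoter entries (build GRCm38.p6) were matched for 6 of the 7 genes. Bases before the first annotated exon are printed on the strand of the gene. Capitals mark matches to TCACCNCA, a form of the sterol response element, or to TCACCCCAC, and to CCAAT, the NF-Y box, on either strand, so that ATTGG is a CCAAT on the opposite strand. The Srebf2 stretch is chr15:82147019-82147180 (plus strand), that of Hmgcs1 chr13:119690101-119690350 (plus), that of Cyp51 chr5:4104747-4104947 (minus) and that of Insig1 chr5:28071162-28071362 (plus).
Srebf2: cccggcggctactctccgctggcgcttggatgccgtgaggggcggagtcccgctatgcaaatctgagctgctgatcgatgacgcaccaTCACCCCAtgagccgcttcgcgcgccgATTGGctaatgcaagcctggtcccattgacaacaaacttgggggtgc
Hmgcs1: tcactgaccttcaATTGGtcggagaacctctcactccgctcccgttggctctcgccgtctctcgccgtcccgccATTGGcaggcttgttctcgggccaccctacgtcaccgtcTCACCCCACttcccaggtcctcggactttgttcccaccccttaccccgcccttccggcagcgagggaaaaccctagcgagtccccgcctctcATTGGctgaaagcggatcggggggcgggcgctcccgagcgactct
Cyp51: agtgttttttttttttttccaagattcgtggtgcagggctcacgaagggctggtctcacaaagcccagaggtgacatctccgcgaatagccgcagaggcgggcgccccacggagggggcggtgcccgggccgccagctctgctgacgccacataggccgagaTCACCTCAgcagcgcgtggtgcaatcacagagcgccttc
Insig1: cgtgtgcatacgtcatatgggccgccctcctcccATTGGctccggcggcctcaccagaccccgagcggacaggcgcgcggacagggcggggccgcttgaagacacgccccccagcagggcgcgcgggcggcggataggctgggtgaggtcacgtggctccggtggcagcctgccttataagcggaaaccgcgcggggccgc

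Within 250 bases before the start, CCAAT was found in all 6 promoters with an entry, beside 40.8% of the promoters of 8605 tested genes and 33.8% of all 32851 promoters. It was also found in 10 of the 11 other synthesis enzymes with an entry. TCACCNCA was found in 3 of the 6 (Srebf2, Hmgcs1 and Cyp51), beside 4.03% of tested genes and 3.61% of all promoters, and in 1 of the 11 other enzymes (Hsd17b7). The longer TCACCCCAC, which contains the shorter motif, was found in Hmgcs1 alone of the 6, beside 0.732% of tested genes. The Srebf2, Cyp51 and Insig1 stretches end at the first annotated exon and so leave out part of their windows. The CCAAT of Cyp51, for example, lies 29 bases before the start and is not among the bases printed. The Hmgcs1 stretch ends at 119690350, before the annotated gene start at 119690379. A match is a description of the sequence and no evidence of binding.

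The tissue label was checked first. Of 8 hepatocyte markers 7 were in the table, and their summed level ran from 33737 to 54850 RPKM, a read count divided by gene length and sequencing depth. Most of this sum was Alb. In STZ against Con, Cps1 and Hnf4a were called higher and Apoa1, Serpina1a and Ttr lower, beside 33.0% and 5.52% of all genes. The same markers were called in the same directions in STZ+AOS against AOS. Each library held 9955 to 10409 genes at 1 RPKM or more. The summed RPKM of all genes was 749557 to 806937 in Con and 621121 to 684659 in STZ and STZ+AOS, and the median log2 change over all tested genes was 0.21 in STZ against Con and 0.21 in STZ+AOS against AOS. Of 7 fibroblast markers only Dcn was called in STZ against Con, at 64.9 ± 5.86 RPKM in Con and 107 ± 8.62 in STZ (mean ± SD, n = 3 each), and the median log2 change of the list was 0.07. Of 5 endothelial markers Kdr and Pecam1 were called higher in STZ against Con. Of 7 Kupffer cell markers Marco and Timd4 were called higher, and the summed level was 59.2 to 88.3 RPKM in Con and 88.9 to 200 in STZ. The part of all these markers in the results was not tested. In whole liver, fewer cells of a type and less RNA per cell cannot be told apart. Reads per library cannot be read from RPKM. Nothing in the labels says more of the mice than their group and number, so the tests measure the spread between these 3 livers per group.

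Livers within the STZ-treated groups differed widely in these genes, which bears on every comparison that follows. STZ mouse 3 had the lowest value of its group in all 7 genes, as had STZ+AOS mouse 1. Con-FMT mouse 2 was lowest in 6 of the 7, the exception being Insig1. Con mouse 1 and AOS mouse 2 were also lowest of their groups in all 7, but the 5 enzymes spread less in Con and AOS than in STZ, STZ+AOS and Con-FMT. On the log2(RPKM + 1) scale, the mean of the 5 enzymes relative to the Con mean was 0.93, 0.55 and -0.78 in STZ mice 1 to 3, and -1.27, 0.06 and 0.04 in STZ+AOS. It was 0.47, -0.80 and 0.22 in Con-FMT. In contrast it was 0.66, 0.76 and 0.84 in A10-FMT, so the A10-FMT livers were close to each other and above every Con and AOS liver. Con lay between -0.18 and 0.15 and AOS between -0.15 and 0.07. Comparisons of the 7 genes that rest on these livers are given with and without them. Correlations, spreads and most counts of other gene lists are given with all livers only.

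**Figure D1:**
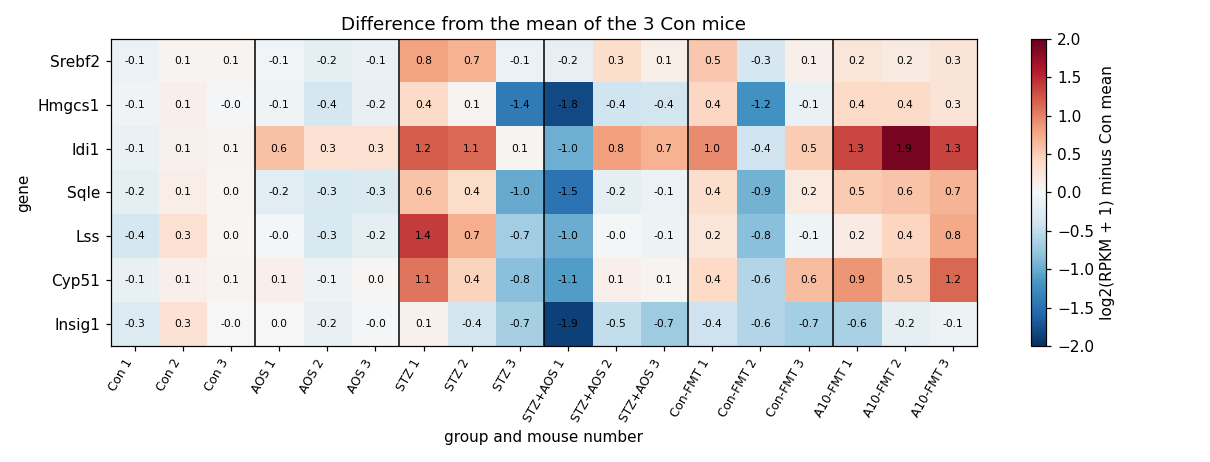
Log2(RPKM + 1) of each gene (rows) in each of the 18 livers (columns) minus the mean of the 3 Con livers, in colour and as a rounded value. STZ mouse 3, STZ+AOS mouse 1 and Con-FMT mouse 2 are low across most genes, and the 3 A10-FMT livers are above the Con mean in every gene but Insig1.

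Srebf2 (chromosome 15, 82147181 to 82205379, plus strand, GENCODE M21 on GRCm38) encodes the regulator. It was read at 12.5, 14.2 and 14.2 RPKM in Con mice 1 to 3 and at 12.99, 11.8 and 12.2 in AOS. In STZ it was 24.6, 22.6 and 12.5, and in STZ+AOS 12.02, 17.5 and 14.9. In Con-FMT it was 20.2, 10.6 and 14.7, and in A10-FMT 16.2, 15.5 and 16.5. STZ mice 1 and 2 were thus the highest livers of the series, whereas STZ mouse 3 was at the level of the lowest Con liver. The mean level followed the order STZ, A10-FMT, Con-FMT, STZ+AOS, Con and AOS, and neighbours in that order overlapped throughout. The A10-FMT livers were all above the Con livers, at 16.1 ± 0.514 against 13.6 ± 0.953 RPKM (mean ± SD, n = 3 each).

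Hmgcs1 (chromosome 13, 119690379 to 119708260, plus strand) encodes the cytosolic HMG-CoA synthase, an early enzyme of the mevalonate pathway. Its level was 172, 193 and 175 RPKM in Con, 170.3, 141 and 161 in AOS and 236, 234 and 216 in A10-FMT. In STZ the level was 236, 187 and 66.5, in STZ+AOS 50.6, 136 and 139.9, and in Con-FMT 240.4, 77.4 and 163. The highest liver in each of STZ and Con-FMT thus reached the A10-FMT range, while the lowest fell far under the Con range. AOS livers were all below Con and above STZ+AOS, with the closest pair 141 against 139.9. In the order A10-FMT, Con, STZ, Con-FMT, AOS and STZ+AOS, the first pair and the last pair of neighbours did not overlap and the others did.

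Idi1 (chromosome 13, 8885501 to 8892451, plus strand) encodes the isopentenyl-diphosphate isomerase that supplies the building blocks of all isoprenoids. It had the widest range of the 7 genes, from 20.2 to 154 RPKM over the livers, or 7.64-fold. Con livers were at 37.0, 43.2 and 42.6 RPKM and AOS livers at 61.6, 50.4 and 50.7. STZ livers were at 95.5, 90.9 and 42.5, and STZ+AOS livers at 20.2, 73.2 and 66.6. Con-FMT livers were at 79.9, 30.7 and 58.6, and A10-FMT livers at 105.0, 154 and 105.4. All 3 A10-FMT livers were thus above every other liver of the series, and all 3 AOS livers were above all Con livers. The order was A10-FMT, STZ, Con-FMT, AOS, STZ+AOS and Con, in which A10-FMT did not overlap with its neighbour and the others did.

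Sqle (chromosome 15, 59315077 to 59331192, plus strand) encodes squalene epoxidase, a rate-limiting step after squalene. Its level was 37.8 to 47.6 RPKM in Con, 34.8 to 36.8 in AOS and 62.7 to 69.4 in A10-FMT. It spread from 20.8 to 64.6 in STZ, from 14.8 to 39.8 in STZ+AOS and from 21.9 to 55.4 in Con-FMT. AOS livers were all below Con, and A10-FMT livers were all above Con and Con-FMT. In the order A10-FMT, STZ, Con, Con-FMT, AOS and STZ+AOS, all neighbours overlapped.

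Lss (chromosome 10, 76531588 to 76557138, plus strand) encodes lanosterol synthase, which closes the sterol ring. Its level was 10.6, 17.4 and 14.3 RPKM in Con and 38.3, 23.5 and 8.19 in STZ. It was 15.6, 18.9 and 24.2 in A10-FMT and 16.6, 7.32 and 12.96 in Con-FMT, and reached at most 13.5 in AOS and 13.6 in STZ+AOS. STZ mouse 1 was the highest liver of the series in Lss. The order was STZ, A10-FMT, Con, Con-FMT, AOS and STZ+AOS, with overlap between all neighbours. Cyp51 (chromosome 5, 4081145 to 4104746, minus strand) encodes the lanosterol demethylase, the enzyme that follows. Its level was 37.1 to 44.2 RPKM in Con, 38.5 to 44.4 in AOS, 59.1 to 93.0 in A10-FMT, 22.7 to 87.7 in STZ, 27.0 to 63.6 in Con-FMT and 18.5 to 44.3 in STZ+AOS. A10-FMT livers were all above Con, and neighbours in the order A10-FMT, STZ, Con-FMT, AOS, Con and STZ+AOS overlapped.

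Insig1 (chromosome 5, 28071363 to 28078662, plus strand), the feedback gene, had another order of levels: Con, AOS, STZ, A10-FMT, Con-FMT and STZ+AOS, with overlap between all neighbours. It was read at 142, 210.3 and 172 RPKM in Con and at 173, 155 and 169 in AOS. In STZ it was 184, 133 and 108, and in STZ+AOS 46.7, 123 and 105. In Con-FMT it was 129.9, 114 and 108, and in A10-FMT 109.99, 153 and 161. Con-FMT and STZ+AOS livers were all below the Con and the AOS livers, and STZ+AOS mouse 1 was by far the lowest liver of the series.

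**Figure D2:**
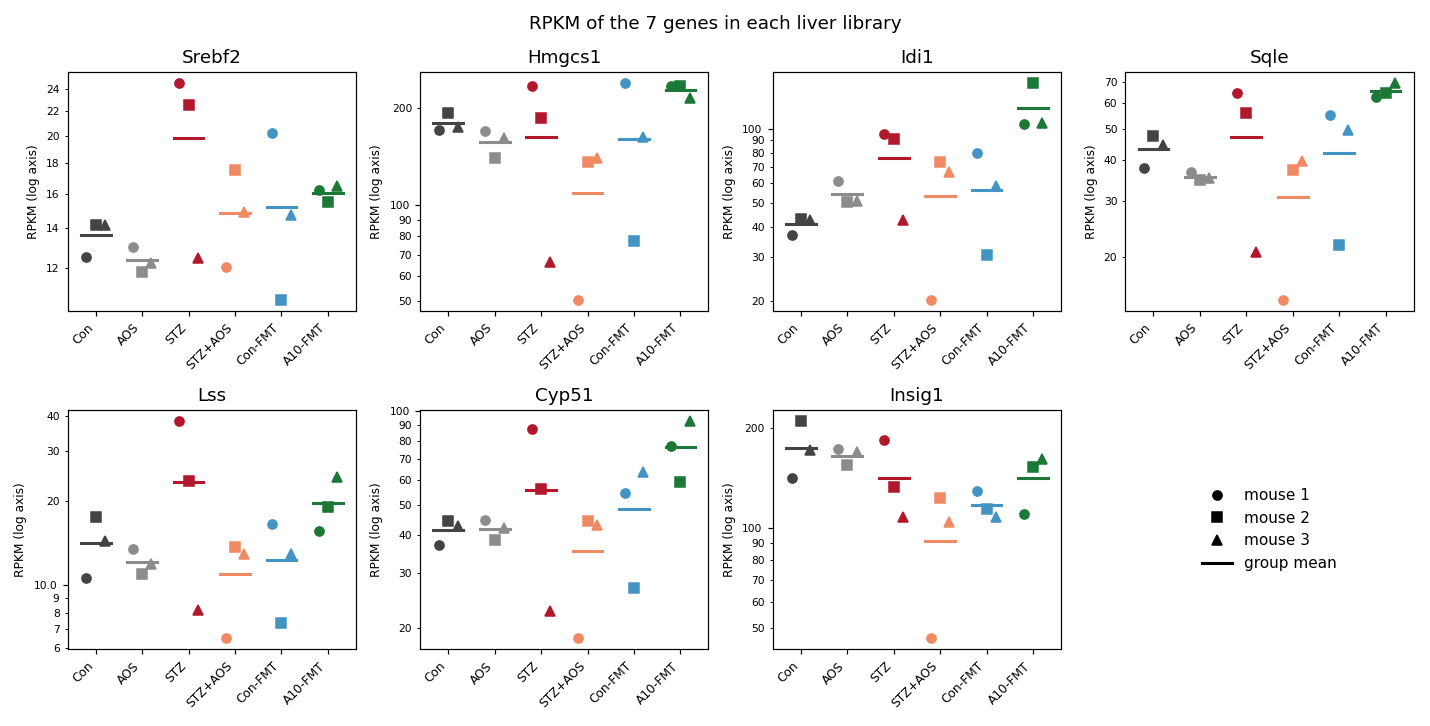
RPKM (log axis) of each of the 7 genes in every liver, by group, with the mouse number as the symbol and the group mean as a line. The 3 A10-FMT livers have the highest Idi1 values of the series, while STZ, STZ+AOS and Con-FMT livers spread over a wide range in the 5 enzymes.

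STZ was compared with Con to ask how the diabetic model changed these genes. Idi1 had the largest difference, with 76.3 ± 29.3 RPKM in STZ against 40.9 ± 3.44 in Con (mean ± SD, n = 3 each), a log2 change of 0.80 (SE 0.35, limma adjusted p = 0.091). Srebf2 differed by 0.46 and Lss by 0.48 on the log2 scale, Cyp51 by 0.23, Sqle by -0.02, Hmgcs1 by -0.33 and Insig1 by -0.32, with adjusted p from 0.145 to 0.968. None of the 7 genes was called, and 1 (Idi1) had an unadjusted p under 0.05. Among all 10602 genes tested, limma called 38.5%, of which most rose (33.0% of all genes) and fewer fell (5.52%), while after median-ratio scaling 14% rose and 13.2% fell. Without STZ mouse 3 the median of the 7 genes was 0.75 in place of 0.23, and Srebf2 (log2 change 0.75, adjusted p = 0.00904), Idi1 (1.17, 0.0112) and Lss (1.06, 0.0192) were called higher in STZ, as were 39.8% of all genes. After median-ratio scaling of the libraries, which removes the general shift of 0.21, the value for Cyp51 was -0.04 and Insig1 was called lower (log2 change -0.59, adjusted p = 0.0406).

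The FMT groups were compared with STZ to ask what differed after the transfer. The paper describes no oral vehicle for STZ mice, so the microbiota and the daily oral dosing cannot be told apart. In A10-FMT against STZ the log2 change was 0.73 for Idi1, 0.67 for Hmgcs1, 0.62 for Cyp51 and 0.62 for Sqle, but 0.01 for Insig1, -0.03 for Lss and -0.24 for Srebf2. The SE of these values ran from 0.21 to 0.45, the smallest limma adjusted p was 0.264, and 0 of the 7 genes had an unadjusted p under 0.05. Here 0.226% of all genes were called. Only Idi1 had all A10-FMT livers above all STZ livers, which held for 7.61% of all genes. Without STZ mouse 3 the median of the 7 genes was 0.10 in place of 0.62, with Idi1 at 0.36 and Lss at -0.62. In Con-FMT against STZ the log2 change ran from -0.71 (Lss) to 0.02 (Hmgcs1), and 0 genes of the 7 were called or had an unadjusted p under 0.05, with 0.00943% of all genes called by limma. Without STZ mouse 3, Srebf2 (-0.65, adjusted p = 0.0460) and Lss (-1.29, adjusted p = 0.0237) were called lower in Con-FMT. Of all genes 15.5% were then called, 9.84% lower and 5.62% higher. The median over the 7 genes was -0.62 in place of -0.24. Without Con-FMT mouse 2 that median was -0.07, 3 of the 7 values were above 0 and the highest was 0.46 (Hmgcs1).

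A10-FMT and Con-FMT, which differ in the donors of the inoculum, were compared directly. All 7 genes had a higher mean log2 level in A10-FMT, from 0.12 to 1.17, with a median of 0.68, whereas the median over all tested genes was -0.02. The value was largest for Idi1, at 121 ± 28.2 against 56.4 ± 24.7 RPKM (mean ± SD, n = 3 each), with a log2 change of 1.17 (SE 0.35, limma adjusted p = 0.999). In this comparison 0 of the 7 genes were called and 1 (Idi1) had an unadjusted p under 0.05, while 0.0% of all genes were called. Idi1 and Sqle had all A10-FMT livers above all Con-FMT livers, against 2.94% of all genes. Without Con-FMT mouse 2 the median was 0.32, and 6 of the 7 genes had a value above 0, with Idi1 at 0.79 and Srebf2 at -0.10.

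Against Con, A10-FMT livers held 2.97-fold more Idi1, with a log2 change of 1.53 (SE 0.35, limma adjusted p = 0.0154). It was the single gene of the 7 that was called, beside 18.4% of all genes (15.9% higher and 2.47% lower, or 6.28% and 4.7% after median-ratio scaling). Cyp51 differed by 0.85, Sqle by 0.59, Lss by 0.45, Hmgcs1 by 0.34, Srebf2 by 0.23 and Insig1 by -0.30, all not called. Srebf2, Hmgcs1, Idi1, Sqle and Cyp51 had all A10-FMT livers above all Con livers, which held for 41.7% of all genes. A fit of these 2 groups alone, in which the spread of the STZ livers plays no part, called 4 genes higher, beside 27.9% of all genes called higher in that fit: Idi1, Cyp51 (adjusted p = 0.00703), Sqle (adjusted p = 0.00514) and Hmgcs1 (adjusted p = 0.0239). The call for Idi1 was lost without A10-FMT mouse 2 (adjusted p = 0.0532), Con mouse 1 (0.0634) or Con mouse 3 (0.0507).

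Con-FMT against Con gave log2 changes from -0.56 to 0.36, and limma called 0 of the 7 genes, beside 19.4% of all genes (17.5% higher and 1.89% lower, or 4.9% and 3.33% after median-ratio scaling). The lowest was Insig1, at 117 ± 11.4 against 175 ± 34.2 RPKM (mean ± SD, n = 3 each), with a log2 change of -0.56 (SE 0.21, adjusted p = 0.085). After median-ratio scaling the values for Srebf2 and Cyp51 were also below 0, at -0.10 and -0.08, while without Con-FMT mouse 2 all genes but Insig1 were above 0. Insig1 was also the 1 gene with an unadjusted p under 0.05 and the 1 gene with no overlap, being lower in all Con-FMT livers, as were 5.22% of all genes. It was called lower after median-ratio scaling (log2 change -0.78, adjusted p = 0.0305), after quantile normalization (-0.84, adjusted p = 0.0178) and when these 2 groups were fitted alone (adjusted p = 0.0474). The comparisons that share Con or STZ livers are not independent of each other.

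**Figure D3:**
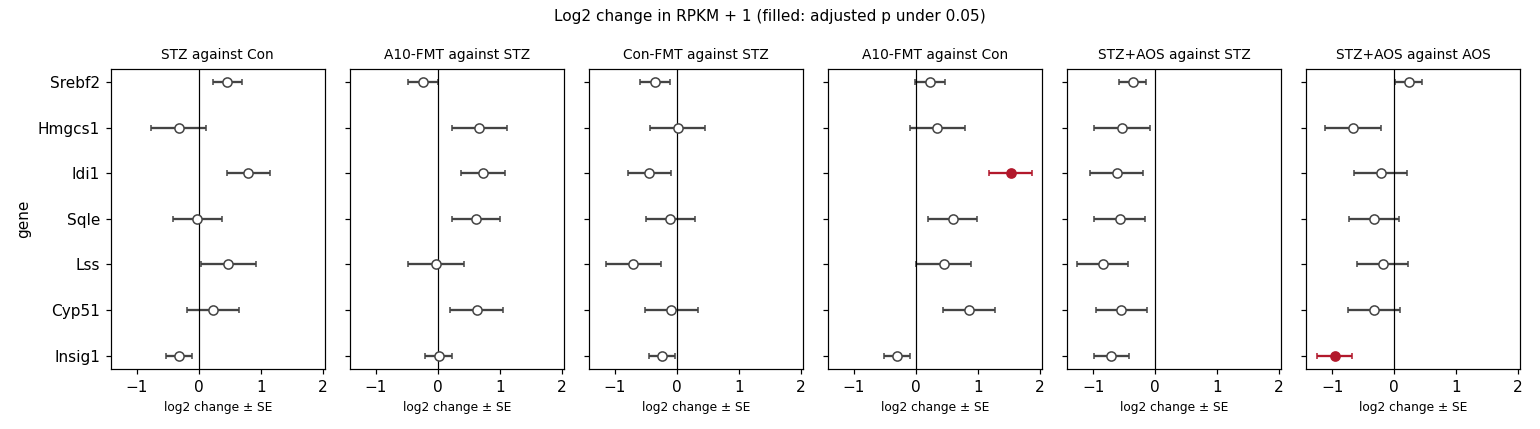
Log2 change in RPKM + 1 (x axis) with its standard error for each gene (y axis) in 6 comparisons; filled points have an adjusted p under 0.05. Idi1 in A10-FMT against Con and Insig1 in STZ+AOS against AOS are the filled points.

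AOS was compared with Con to ask what the oligosaccharide did in mice without STZ. The log2 change ran from -0.27 to 0.40, and limma called 0 of the 7 genes, with 0 at an unadjusted p under 0.05 and 0.00924% of all genes called. This fit pooled the spread of all 6 groups. The SE of Idi1 was 0.43, while its SD between livers was 0.12 in Con and 0.16 in AOS on the log2 scale. A fit of these 2 groups alone was not run. Idi1 was highest, at 54.2 ± 6.35 against 40.9 ± 3.44 RPKM (mean ± SD, n = 3 each), with all AOS livers above all Con livers, as in 19.1% of all genes. Hmgcs1 and Sqle were lower in all AOS livers, as were 5.24% of all genes. STZ+AOS against STZ gave values below 0 for all 7 genes, from -0.85 (Lss) to -0.36 (Srebf2), with a median of -0.57 beside 0.05 over all genes. Of these 0 were called by limma and 1 (Insig1) had an unadjusted p under 0.05, with 0.0% of all genes called. Without STZ+AOS mouse 1 the median was -0.15, and without STZ mouse 3 it was -1.07, with all 7 values below 0 in both.

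In STZ+AOS against AOS, Insig1 fell from 166 ± 9.50 to 91.5 ± 39.8 RPKM (mean ± SD, n = 3 each), a log2 change of -0.96 (SE 0.29, limma adjusted p = 0.0164). It was the only one of the 7 genes called, beside 37.9% of all genes (31.8% higher and 6.11% lower, or 12.2% and 12.4% after median-ratio scaling). Hmgcs1 and Insig1 were lower in all STZ+AOS livers, as were 8.61% of all genes. Without STZ+AOS mouse 1 the change in Insig1 was -0.54 and was not called (adjusted p = 0.0671), and the median of the 7 genes was 0.11 in place of -0.33. The difference between the STZ effect with AOS and that without was below 0 for all 7 genes, from -1.02 to -0.23, but limma called 0 of them and 0 had an unadjusted p under 0.05, with 0.0% of all genes called. The median was -0.56, and it was -0.88 without STZ mouse 3 and -0.16 without STZ+AOS mouse 1, where 2 of the 7 values were above 0.

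The spread between livers was itself a feature of these genes. The SD of Hmgcs1 on the log2 scale was 0.089 in Con, 0.070 in A10-FMT and 0.14 in AOS, but 0.96 in STZ, 0.83 in Con-FMT and 0.83 in STZ+AOS. For all tested genes the median SD was 0.11 in Con and 0.19 in STZ. Pooled over the 6 groups, the SD of each of the 5 enzymes was larger than that of 97.1% to 97.8% of the tested genes, that of Insig1 larger than 92.7% and that of Srebf2 larger than 85.6%. In A10-FMT the SD of Srebf2, Hmgcs1 and Sqle was 0.044, 0.070 and 0.075, below the median of 0.11 over all genes in that group, whereas that of Idi1, Lss, Cyp51 and Insig1 was 0.30 to 0.32.

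**Figure D4:**
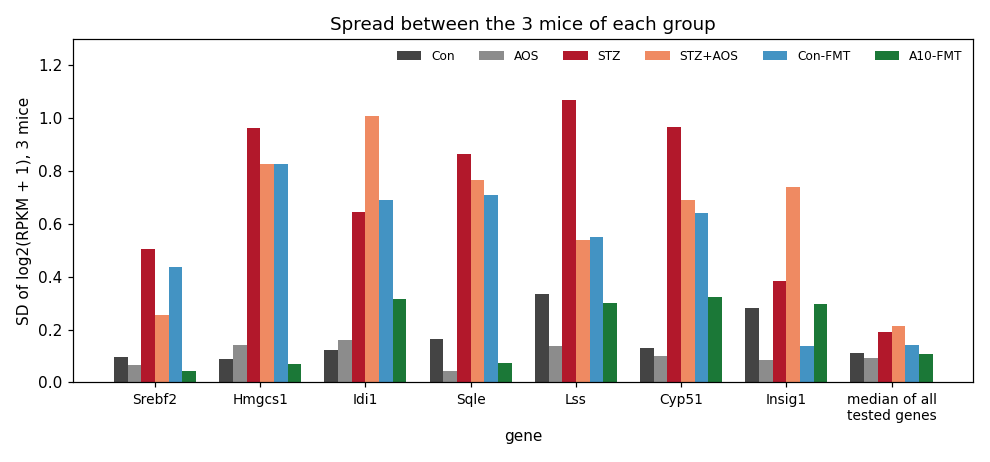
Standard deviation of log2(RPKM + 1) between the 3 livers of each group (bars, coloured by group) for the 7 genes and, at the right, the median over all tested genes. The 5 enzymes vary most in STZ, STZ+AOS and Con-FMT.

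Levels of the 5 enzymes varied together from liver to liver, and those of Srebf2 and Insig1 followed them less closely over all livers. Over the 18 livers, Pearson r between pairs of the 5 enzymes ran from 0.78 to 0.96 (10 pairs, median 0.87), and from 0.81 to 0.98 after group means were subtracted. Srebf2 had r of 0.61 to 0.85 with the enzymes, and 0.83 to 0.94 within groups. Insig1 had r of 0.42 to 0.71 with the enzymes, and 0.69 to 0.80 within groups. Srebf2 and Insig1 had r = 0.23 with each other, and 0.61 within groups. Within groups, r was also shifted upward for genes outside the 7. Their r to the mean standardized level of the 5 enzymes and Insig1 had a median of 0.217 within groups and 0.0223 over all livers. The 99th percentile was 0.835 and 0.619. All values of 1 liver come from 1 library, so these correlations describe the livers and share whatever differs between libraries. The 15 synthesis enzymes outside the 7 genes showed the same livers as low: 14 of them were lowest in STZ mouse 3 within STZ (50.3% of all tested genes), 14 in Con-FMT mouse 2 (51.0%), 14 in STZ+AOS mouse 1 (31.6%) and 14 in Con mouse 1 (62.2%).

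Differences between members were read as log2 differences within each liver, chosen after the values were seen and given with no test. Idi1 minus the mean of Hmgcs1, Sqle, Lss and Cyp51 was -0.26 to -0.13 in Con and 0.17 to 1.24 in the 15 other livers. Of all genes tested, 2.18% had the Con livers below all others on this measure. Srebf2 minus the mean of the 5 enzymes was -2.24 to -2.08 in A10-FMT and -1.79 to -0.55 in all other livers, and 13.8% of all genes had the A10-FMT livers below all others on this measure. Insig1 minus the same mean was 1.81 to 2.05 in Con and AOS and 0.60 to 0.98 in A10-FMT, but 83.3% of all genes had A10-FMT livers below all Con and AOS livers on this measure. Among the STZ-treated livers, those nearest to Con on this measure were STZ mouse 3 (2.02) and Con-FMT mouse 2 (2.12), which had low enzymes. Low enzymes raise this difference by its definition, but STZ+AOS mouse 1, with the lowest enzyme mean of the series, was at 1.32.

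**Figure D5:**
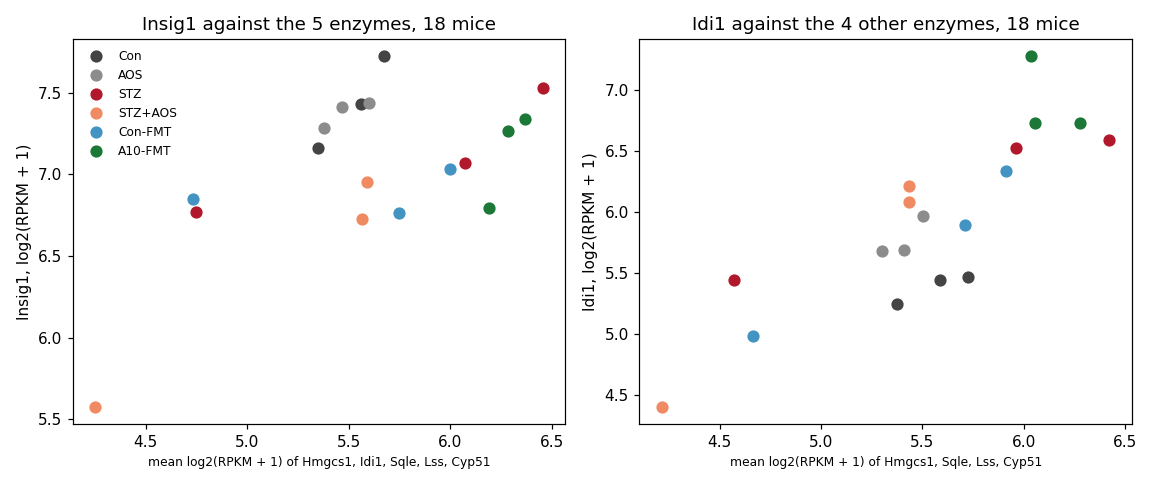
Left, Insig1 against the mean of the 5 enzymes, and right, Idi1 against the mean of the 4 other enzymes, both as log2(RPKM + 1), with 1 point per liver coloured by group. Idi1 lies lower in Con than in other livers of the same enzyme level.

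The genes most like the targets were sought by Pearson r to the mean standardized level of the 6 targets over the 18 livers. Among 10811 other genes, those among the closest 10 included Fdft1 (r = 0.946), Msmo1 (0.944), Mvk (0.940), Mmab (0.917), Acat2 (0.912), Pold2 (0.908), Nsdhl (0.901) and Fdps (0.881). Of these, Fdft1, Msmo1, Mvk, Acat2, Nsdhl and Fdps belong to the 15 other synthesis enzymes, of which 13 were among the closest 50. Mmab encodes an enzyme of cobalamin metabolism and Pold2 a subunit of DNA polymerase delta. Over all these genes the median r was 0.0223 and the 99th percentile was 0.619. Srebf2 itself had r = 0.704 to the targets. Genes among the closest 5 to Srebf2 were Mrps27 (r = 0.937), Ndufa6 (0.890), Vim (0.877) and Tmem97 (0.857). Insig2, the related retention gene, had r = -0.755 to the targets.

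Of the 15 other synthesis enzymes, 1 was called in STZ against Con, beside 38.5% of all genes. This was Sc5d, the lathosterol oxidase, which fell by 1.04 on the log2 scale (limma adjusted p = 0.00212). Without STZ mouse 3, 6 more were called higher, among them Fdft1, Hsd17b7, Msmo1 and Mvk, a share near the 39.8% of all genes called higher. After median-ratio scaling 0 were higher and 4 lower, beside 14% and 13.2% of all genes. In A10-FMT against STZ, 14 of the 15 had a log2 change above 0, with a median of 0.56, beside -0.05 over all genes, and limma called 0. Without STZ mouse 3 that median was 0.17 and 1 gene, Sc5d, was called higher, beside 3.78% of all genes. In STZ+AOS against AOS, 7 of the 15 fell (Dhcr7, Ebp, Fdps, Nsdhl, Pmvk, Sc5d and Tm7sf2), beside 6.11% of all genes. The median was -0.56 beside 0.21 over all genes, and Pmvk, the phosphomevalonate kinase, fell by 1.48 (limma adjusted p = 0.00201). Only Pmvk and Sc5d were called without STZ+AOS mouse 1, where 5.43% of all genes were called lower.

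Genes that hold or release SREBP, and those of cholesterol uptake and export, were counted in STZ against Con, where 33.0% of all genes rose. Of 12 genes of SREBP processing other than Srebf2 and Insig1, 3 rose, among them the ubiquitin ligases Rnf139 and Rnf145, and 0 fell, and Rnf145 alone was called after median-ratio scaling. Rnf145 differed by 0.73 (adjusted p = 0.00778) in STZ and by 0.89 (adjusted p = 0.00863) in A10-FMT, both against Con. Of 7 tested genes of uptake and transport, Npc1, Npc2 and Scarb1 rose, and Npc1 and Scarb1 were called after median-ratio scaling. Npc1, which moves cholesterol out of lysosomes, rose by 1.499 (SE 0.18, adjusted p = 0.000471), and Scarb1, the HDL receptor, by 1.28 (adjusted p = 0.00106). Of 14 tested genes of LXR action and cholesterol export, 6 rose and 1 fell, and after median-ratio scaling 6 were called higher and 3 lower. Abcg5 and Abcg8, which together export sterols into bile, rose by 1.75 (adjusted p = 0.000328) and 1.49 (adjusted p = 0.000675), and Cyp7b1 fell by 2.77 (adjusted p = 0.00454).

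Genes of the circadian clock moved with the STZ-treated groups, and their part in the results above was not tested. The time of day at collection is not given in the sources used here. Of 15 clock genes, 9 rose and 3 fell in STZ against Con, beside 33.0% and 5.52% of all genes. In A10-FMT against Con 9 rose and 4 fell (15.9% and 2.47% of all genes). In Con-FMT against Con 6 rose and 3 fell (17.5% and 1.89%), and in STZ+AOS against AOS 8 and 1 (31.8% and 6.11%). In AOS against Con limma called 0 of the 15 and 0.00924% of all genes, and 12 of the 15 log2 changes were above 0. The values there for Nr1d1 (2.45) and Nr1d2 (1.39) were near the threshold (limma adjusted p = 0.096 each). Dbp, an output gene of the clock, was read at 0.66, 0.58 and 0.68 RPKM in Con and at 3.41, 0.36 and 1.78 in AOS. It was 88.0, 18.7 and 6.75 in STZ, 16.6, 76.5 and 24.3 in STZ+AOS, 53.9, 37.9 and 27.3 in Con-FMT and 62.3, 78.7 and 80.3 in A10-FMT. Every liver with STZ was thus above every liver without it. Within STZ, Dbp followed the order of the mice in the synthesis genes, with mouse 1 highest and mouse 3 lowest, and STZ+AOS mouse 1 was lowest in both. In Con-FMT, mouse 3 was lowest in Dbp and mouse 2 in most of the synthesis genes. These orders are given for Dbp alone of the 15 clock genes, and a link to the synthesis genes was not tested.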

How the data were processed

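Liver RNA of 18 mice was sequenced on an Illumina instrument, and the authors deposited 1 RPKM value per gene and library. The methods name SOAPaligner, whereas the submitters' processing notes name Bowtie 0.12.2 and mm10; which made the table is not given in the sources used here. RPKM corrects for transcript length and mapped reads but keeps no depth, and the authors' DEGseq test needs read counts, so it was not run. Columns were mapped to groups by their labels. The 7 genes, the gene lists and the motifs were chosen with earlier results of these data known. A gene was kept where 3 or more libraries reached 1 RPKM, 1 was added before log2, and group means were fitted with limma 3.58.1 (R 4.3.3, trend, two-sided, Benjamini-Hochberg adjustment over all tested genes, called under 0.05). Comparisons among Con, STZ, Con-FMT and A10-FMT used 12 libraries (10602 genes), and those with AOS or STZ+AOS used 18 (10822 genes). Fold values are ratios of mean RPKM. Log2 changes on this scale understate those of low genes. Named genes were the 7, members of the lists, the 10 closest and 5 most opposite genes to the targets, and the 5 closest to Srebf2. The fit was tested on simulated data. Alternatives were median-ratio scaling, quantile normalization, a pseudocount of 0.1, no filter, no trend, a replicate block, other sets of groups, a stricter threshold (FDR 0.001 and a log2 change of 1) and leaving out each mouse. The lists were also counted under other scalings and without single livers, which was chosen after seeing the data. Markers that had no row were not analysed here. Some genes that the rule named are not reported here.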

Additional observations from a re-analysis of the deposited data

How the results depend on the processing

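With 3 mice per group, the number of the 7 genes called was recomputed under each alternative. In STZ against Con it was 0 in the analysis as reported, 1 (Insig1, lower) after median-ratio scaling and 1 after quantile normalization, and 0 to 3 when each mouse was left out in turn. In Con-FMT against STZ it was 0, and 0 to 2 with a mouse left out. In A10-FMT against Con it was 1, 4 with only the 2 groups, 0 at the stricter threshold and 0 to 1 with a mouse left out. In Con-FMT against Con it was 0, and 1 after median-ratio scaling, after quantile normalization and with only the 2 groups. In STZ+AOS against AOS it was 1, 0 at the stricter threshold and 0 to 1 with a mouse left out. Of 1036 values of single genes, 969 kept their direction and their side of the threshold, 48 changed sign with neither value called, 13 passed the threshold and 6 lost it, and 0 reversed among called values. The labels do not say whether mouse numbers shared across groups pair the mice. Of 45 same-numbered pairs, 16 had a correlation of deviations over 0.1, with a range of -0.25 to 0.47 and a median of 0.03. Of 18 libraries, 9 were closest to their own number. These values describe the livers and do not settle whether the mice were paired. With the replicate block, 1 gene was called in A10-FMT against Con, 1 in STZ+AOS against AOS and 0 in the other comparisons. The number of synthesis enzymes among the 10 closest genes was 6 as reported, 5 by Spearman rho, 7 after subtracting group means and 6 after median-ratio scaling. The precision of low values is limited by a read depth that RPKM do not give.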

Other observations

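Lipogenic genes, which respond mainly to SREBP1, were counted beside the cholesterol genes. Of 14 tested, 6 fell in STZ against Con (Aacs, Acacb, Acss2, Fasn, Me1 and Scd1) and 0 rose, beside 5.52% of all genes lower, with 9 lower after median-ratio scaling. Scd1, the stearoyl-CoA desaturase, fell by 4.16 on the log2 scale (SE 0.83, limma adjusted p = 0.00355), and Fasn, the fatty acid synthase, by 1.00 (SE 0.26, adjusted p = 0.0125). In STZ+AOS against AOS 10 of 15 tested fell, beside 6.11% of all genes, among them Acly, which makes acetyl-CoA from citrate, by 1.23 (adjusted p = 0.000555). The 9 genes of the isoprenoid branch, which uses the same precursors for other products, held 3 that rose in STZ against Con (Coq2, Fnta and Nus1) and 0 that fell, a share near the 33.0% of all genes that rose, with Coq2 at 0.49 (adjusted p = 0.00628), but 0 were called in either direction after median-ratio scaling.

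Genes among the 5 with the most negative correlation to the 6 targets over the 18 livers were Prg4 (r = -0.818), Rspry1 (-0.793), Ier5 (-0.791) and G3bp2 (-0.783). Pancreatic acinar markers summed to 75.6 RPKM in STZ+AOS mouse 3 and to at most 2.46 in the other livers. Blood markers summed to 8838 RPKM in Con-FMT mouse 1 and to 289 to 3265 in the other livers. These libraries were not the lowest of their groups in the 5 enzymes, and the part of these markers in the results was not tested. Fat cell markers summed to at most 2.40 RPKM, with Lep at 0 in every liver, and Cd3e and Epcam were under 1 RPKM in all.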
